A study of Mus musculus with 3 samples.

Results

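The report describes 34 genes of the Polycomb system in mouse embryonic stem (ES) cells. They are the subunits of Polycomb repressive complex 1 (PRC1) and of Polycomb repressive complex 2 (PRC2), together with Bap1 and Asxl1, which form a deubiquitinase that acts on the PRC1 mark. The members were taken by gene symbol from a list written for this report, not selected by measured values. Earlier results of these data were known when the list was written. All 34 members were found among the 55536 genes of the gene tables. They have 272 of the 141767 annotated transcripts.

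The study measured total RNA of F121-9, a hybrid ES cell line from a cross of Cast and 129 mice, in 3 libraries that the labels number as biological replicates 1, 2 and 3. All 3 came from one line at passage 14, each started from 400 ng of RNA, and each carried ERCC spike-in RNA. There was 1 group, with no treated or mutant cells, so the comparisons are between genes, between transcripts, between libraries and between 2 quantifications of the same libraries. The tables do not separate the 2 parental alleles.

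Polycomb complexes keep developmental genes silent in cells that do not use them. PRC2 methylates lysine 27 of histone H3, and PRC1 attaches a single ubiquitin to histone H2A. PRC2 takes either of a pair of catalytic subunits and is found in alternative forms called PRC2.1 and PRC2.2, which differ in accessory proteins. PRC1 always contains a RING ligase and a PCGF protein. Canonical complexes also hold a CBX protein, which binds the PRC2 mark, and a PHC protein, whereas variant complexes hold RYBP or YAF2. Below, Pcgf2 and Bmi1 are grouped as canonical and the other PCGF genes as variant, which is a grouping of genes and not a measure of complexes. ES cells express many of these subunits, and the choice of paralogue differs between cell types.

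The gene tables held 9765384 to 10610782 estimated counts per library. All 8 ES cell markers examined were above a TPM (transcript abundance scaled by length and library) of 1 in every library, with a median of 412 TPM. Of 10 fibroblast markers, which feeder cells would bring, Fbln1 (52.5 to 60.7 TPM) and Pdgfrb (1.26 to 1.81 TPM) were above 1 TPM in every library, Col3a1, Lum, Dcn and Postn had 0 counts, and the 10 summed to 56.4 to 65.1 TPM per library. The part of feeder cells in the results was not tested. Replicate 1 stood apart: over the genes tested, the mean chi-square per degree of freedom was 4.48 between replicates 1 and 2, 4.32 between 1 and 3, and 1.25 between 2 and 3, where counting noise alone gives about 1. In bulk RNA, fewer cells that use a gene and less RNA per cell cannot be told apart.

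Nearly the whole Polycomb set was expressed. In the gene tables, 33 of the 34 genes had at least 1 TPM in all 3 libraries, beside 11478 of 22028 protein-coding genes (52.1%). Levels below are TPM, which are scaled by length, so that genes can be compared. The median of the members was 28.3 TPM, beside 19.7 TPM over the expressed protein-coding genes, and 7 members (20.6%) reached 100 TPM in every library, beside 13.1% of expressed protein-coding genes. By complex, the median was 192 TPM for the 6 PRC2 core genes, 64.1 for the 4 PRC2.1 genes, 60.8 for the 2 PRC2.2 genes, 31.7 for the 2 RING ligases, 26.5 for the 9 other canonical PRC1 genes, 25.7 for the 9 variant PRC1 genes and 34.6 for Bap1 and Asxl1. In the order of the 34 levels, 14 of the 33 neighbouring genes had libraries that did not overlap and 19 had libraries that did. The first 6 genes, Rbbp7, Eed, Suz12, Mtf2, Ezh2 and Epop, did not overlap with each other.

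**Figure D1:**
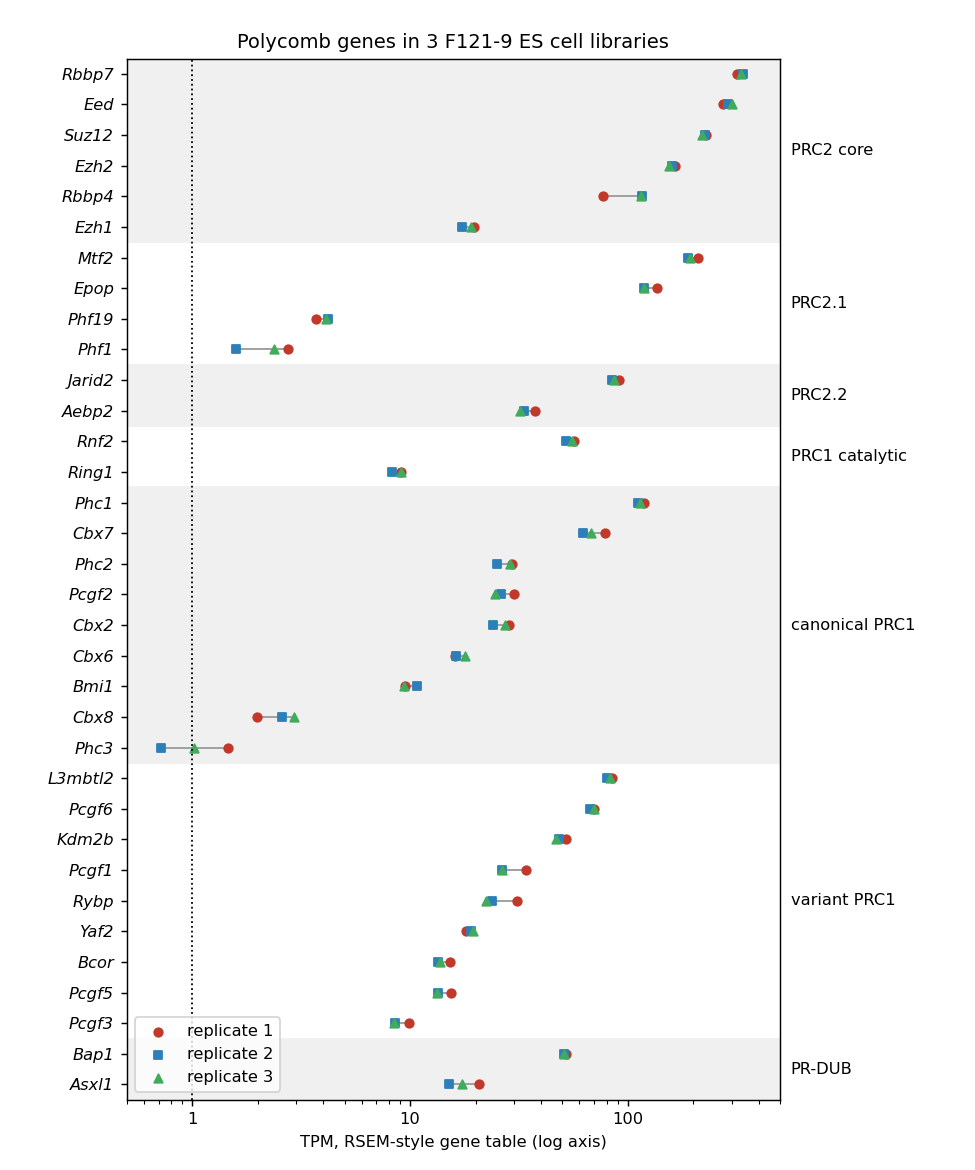
Level of each of the 34 Polycomb genes in the 3 libraries, in TPM on a log axis, grouped by complex. Points are libraries, grey lines join the lowest and highest, and the dotted line marks 1 TPM. All PRC2 core genes but Ezh1 have a mean above 100 TPM, Ezh1 lies below 20 TPM, and Rbbp4 has its replicate 1 value apart from the other two.

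The PRC2 core was led by its histone-binding and scaffold subunits. Rbbp7, a histone chaperone, was measured at 319, 338 and 331 TPM in replicates 1, 2 and 3. Eed, the subunit that binds the methylated histone, was at 273, 289 and 301 TPM. Suz12, the scaffold of the complex, was at 228, 227 and 220 TPM, so these 3 genes did not overlap in any library.

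Of the catalytic pair, Ezh2 far exceeded Ezh1. Ezh2, the methyltransferase that predominates in dividing cells, was at 165, 160 and 155 TPM. Its paralogue Ezh1, known from tissues with little cell division, was at 19.8, 17.3 and 19.0 TPM. The ratio was 8.59 ± 0.58 (SD, n = 3), and Ezh2 made up 89.5% ± 0.6 (SD, n = 3) of the summed EZH level. The RNA levels of the core genes, summed by position, differed. Suz12 exceeded the EZH sum 1.26-fold (1.24 to 1.28 over libraries) and Eed exceeded it 1.62-fold (1.48 to 1.73). The sum of Rbbp4 and Rbbp7 exceeded it 2.42-fold (2.14 to 2.57). In the other quantification, the kallisto-style tables named below, these ratios were 1.44, 1.69 and 2.89. Protein levels were not measured.

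Rbbp4, the close paralogue of Rbbp7, had the least steady level of the core. It was at 76.8 TPM in replicate 1, 117 in replicate 2 and 115 in replicate 3, so that replicate 1 lay well below the other two. Rbbp7 exceeded it 3.31 ± 0.73-fold (SD, n = 3; 2.88 to 4.15). Most of the Rbbp4 level was assigned to Rbbp4-203, a 722-nt transcript annotated as a processed transcript with no coding sequence. It was at 51.7, 81.2 and 84.4 TPM, or 70.2% of the gene. The coding transcript Rbbp4-201, of 4407 nt, was at 25.03, 35.45 and 30.39 TPM but held more of the estimated counts, 953 on average against 280. With coding transcripts only, the log2 difference between Rbbp7 and Rbbp4 was 3.41 instead of 1.69, and Rbbp4 made up 8.40% of the pair instead of 23.6%.

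The transcripts on which the split of the PRC2 core and Pcgf2 levels turned differ in part from others of their gene. Short stretches where they differ are printed here from the GENCODE M21 transcripts on mm10, 5′ to 3′ on the transcript strand. The genes lie at chr4:129307100-129335370 (Rbbp4), chr6:47530139-47595341 (Ezh2), chrX:162760402-162779092 (Rbbp7), chr7:89954654-89980983 (Eed) and chr11:97688823-97700497 (Pcgf2). The letters come from the annotation, not from reads, and reads over these stretches were not counted here. For Rbbp4-203, the capitals are the bases after the junction from exon bases chr4:129322802-129322831 to chr4:129309857-129309876 (minus strand). That target lies in the 3′ untranslated region of Rbbp4-201, and only 30 of the 692 31-base words of Rbbp4-203 occur in no other annotated transcript.
Rbbp4-203: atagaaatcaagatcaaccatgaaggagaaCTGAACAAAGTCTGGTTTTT
For Ezh2-213, a retained-intron transcript of 500 nt, the capitals are the 51 intron bases at its start (chr6:47532036-47532116 with the exon bases that follow, minus strand). They supply the 50 words of 470 that no other transcript holds.
Ezh2-213: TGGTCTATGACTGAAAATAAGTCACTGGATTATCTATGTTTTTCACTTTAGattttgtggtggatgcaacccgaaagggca
For Rbbp7, the capitals are the 27 coding bases (chrX:162768978-162768997 joined to chrX:162769764-162769810, plus strand) that Rbbp7-201 has and Rbbp7-203 lacks.
Rbbp7-201: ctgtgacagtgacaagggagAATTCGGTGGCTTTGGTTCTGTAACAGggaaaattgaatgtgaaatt
Rbbp7-203: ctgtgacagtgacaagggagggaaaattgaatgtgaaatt
For Eed-205, a coding transcript of 767 nt, the capitals follow its own junction (chr7:89956344-89956373 to chr7:89955575-89955604, minus strand), which leaves out the end of an exon of Eed-201.
Eed-205: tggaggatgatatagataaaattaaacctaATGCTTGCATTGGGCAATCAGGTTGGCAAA
For Pcgf2-204, a processed transcript of 470 nt, all bases shown lie outside the coding transcript Pcgf2-202 and begin the last exon of Pcgf2-204 (chr11:97697376-97697455, minus strand). Of its 440 words of 31 bases, 174 occur in no other transcript.
Pcgf2-204: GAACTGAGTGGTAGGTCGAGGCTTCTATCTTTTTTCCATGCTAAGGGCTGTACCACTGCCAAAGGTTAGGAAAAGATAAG

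The transcript with the intron bases took a large share of the Ezh2 level. In the RSEM-style tables, named here for their column layout, Ezh2-213 was at 60.5, 55.5 and 50.4 TPM and was the highest Ezh2 transcript, above the coding Ezh2-201 at 49.7, 48.3 and 51.2 TPM. The libraries of these 2 transcripts overlapped. In the kallisto-style tables, also named for their layout, Ezh2-213 was at 29.8, 30.2 and 23.5 TPM and Ezh2-201 led at 45.3, 39.8 and 40.8 TPM. The short transcript held only 124 estimated counts on average against 963 for Ezh2-201. With coding transcripts only, Ezh2 was at 97.81, 98.35 and 100.17 TPM, made up 84.6% of the EZH level and exceeded Ezh1 5.52-fold.

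The 27-base difference of Rbbp7 was read differently by the tables. Rbbp7-203, which lacks these bases, was at 20.2, 13.6 and 17.7 TPM in the RSEM-style tables and at 80.9, 88.3 and 83.8 TPM in the kallisto-style tables. Its share of the gene was 5.23% in the first and 31.7% in the second, and the values of the 2 tables did not overlap. Only 28 of its 1832 words of 31 bases occur in no other transcript. Eed-205 was at 71.2, 82.2 and 85.4 TPM in the RSEM-style tables, or 27.6% of Eed, and at 38.5, 40.8 and 41.7 TPM, or 19.2%, in the kallisto-style tables.

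The accessory genes of PRC2 were led by Mtf2 and Epop. Mtf2, a Polycomb-like protein that brings PRC2 to unmethylated CpG islands, was at 210, 189 and 192 TPM. Epop, which joins PRC2.1 in ES cells, was at 135, 119 and 118 TPM. Both were highest in replicate 1.

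The other Polycomb-like genes were near the bottom of the set. Phf19 was at 3.7, 4.2 and 4.1 TPM, and Phf1 was at 2.76, 1.59 and 2.36 TPM. Mtf2 exceeded Phf19 49.5-fold (44.9 to 56.6) and made up 96.9% of the level of the 3 Polycomb-like genes. Of the exonic bases of Phf1, 39.3% overlap exons of Cuta on the opposite strand, a gene of 126 TPM. The strand setting of the counting is not given in the sources used here, so the Phf1 level is uncertain. The same holds for Mtf2, of which 6.93% of exonic bases overlap Tmed5 on the opposite strand, a gene of 71.0 TPM in the RSEM-style and 358 TPM in the kallisto-style tables.

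In PRC2.2, Jarid2 stood above Aebp2. Jarid2, which recruits PRC2 and stimulates it, was at 91.2, 84.3 and 86.4 TPM. Aebp2, which stabilises the complex, was at 37.5, 33.4 and 32.1 TPM. Summed, the 4 PRC2.1 genes exceeded the 2 PRC2.2 genes 2.69-fold, with a log2 difference of 1.42 ± 0.02 (SD, n = 3), and made up 72.9% of the accessory level. The PRC2.1 share was 72.0% in the kallisto-style tables. With coding transcripts only, it was 71.4% in the RSEM-style and 68.2% in the kallisto-style tables.

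Summed, the PRC1 ligase genes were less abundant than the PRC2 catalytic genes, although Rnf2 lay above Ezh1. Rnf2, the ligase that gives most H2A ubiquitination in ES cells, was at 56.6, 51.9 and 55.4 TPM. Its paralogue Ring1 was at 9.05, 8.24 and 9.07 TPM. Rnf2 made up 86.1% ± 0.2 (SD, n = 3) of the pair, and the ratio of 6.22 ranged from 6.10 to 6.30 over libraries. The EZH sum, mostly Ezh2, exceeded the RING sum 2.82-fold (2.70 to 2.94). In the kallisto-style tables it did so 2.25-fold (2.06 to 2.45). These sums include noncoding transcripts, and with coding transcripts only the excess was smaller. The RSEM-style mean of Ezh2 then fell from 159.78 to 98.78 TPM, and that of Rnf2 from 54.62 to 53.75 TPM. In the kallisto-style tables Ezh2 fell from 109.03 to 74.26 TPM and Rnf2 from 46.67 to 45.80 TPM.

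The PCGF, PHC and CBX genes each summed to more than the RING pair, and Rybp and Yaf2 to less. The 6 PCGF genes together were at 169, 152 and 152 TPM, which was 2.49-fold the RING sum (2.37 to 2.58). The 3 PHC genes together were at 149, 138 and 144 TPM. The 4 CBX genes analysed here were at 125, 105 and 116 TPM. Rybp and Yaf2 together were at 48.9, 43.0 and 41.8 TPM, below the RING sum of 65.6, 60.2 and 64.4 TPM in every library.

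Among the PCGF genes, Pcgf6 was the most abundant in the gene tables. Pcgf6, the PCGF subunit of the complex PRC1.6 that binds germ-cell gene promoters, was at 70.1, 67.2 and 70.3 TPM and made up 43.9% of the PCGF level. Pcgf1, of PRC1.1, was at 34.1, 26.4 and 26.4 TPM. Pcgf2, of canonical PRC1, was at 29.96, 26.3 and 24.67 TPM, and its libraries overlapped those of Pcgf1.

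The remaining PCGF genes were lower. Pcgf5 was at 15.5, 13.4 and 13.3 TPM and its partner in function Pcgf3 at 9.88, 8.54 and 8.41 TPM. Bmi1, the second canonical PCGF gene and a self-renewal factor of adult stem cells, was at 9.52, 10.7 and 9.35 TPM. Bmi1 and Pcgf3 overlapped, and Pcgf2 exceeded Bmi1 2.75-fold. The 4 variant PCGF genes summed to 3.29-fold the canonical pair, or 76.7% of the PCGF level.

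The level of Pcgf2 depended on the quantification more than that of any other member. Its kallisto-style TPM exceeded its RSEM-style TPM by 1.12 on the log2(TPM + 1) scale (SE 0.09, limma adjusted p = 0.0008), in 3 of 3 libraries, while the median over all 14743 genes tested was -0.25. It was the only member among the genes called, which needed an adjusted p under 0.05 and a difference of at least 1. Of all genes tested, 13.1% were called, 10.7% as higher and 2.4% as lower in the kallisto-style tables. The difference lay in the noncoding transcript Pcgf2-204, whose own bases are printed above. It was at 2.44, 4.10 and 2.48 TPM in the RSEM-style tables, with 6.00 estimated counts on average, and at 41.3, 36.8 and 47.9 TPM in the kallisto-style tables. The coding Pcgf2-202 was at 20.9, 13.3 and 17.7 TPM and at 15.4, 9.88 and 10.8 TPM.

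The shares of the PCGF genes moved with it. With kallisto-style TPM, Pcgf2 made up 36.4% of the PCGF level against 17.1% in the RSEM-style tables, and Pcgf6 made up 31.8%. Pcgf6 then lay below Pcgf2 (log2 difference -0.19 instead of 1.33), Pcgf1 lay below Pcgf2 (-1.19 instead of 0.09), and the variant share was 58.4%. Pcgf2 exceeded Bmi1 7.16-fold in these tables. The ranges of Pcgf6 (55.9, 49.4 and 51.2 TPM) and Pcgf2 (63.2, 52.1 and 64.4 TPM) overlapped, but within each library Pcgf2 was the higher. With coding transcripts only, which was tried after seeing these values, the kallisto-style tables gave Pcgf6 40.4%, Pcgf2 15.7% and the variant genes 77.0%, near the RSEM-style values.

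**Figure D2:**
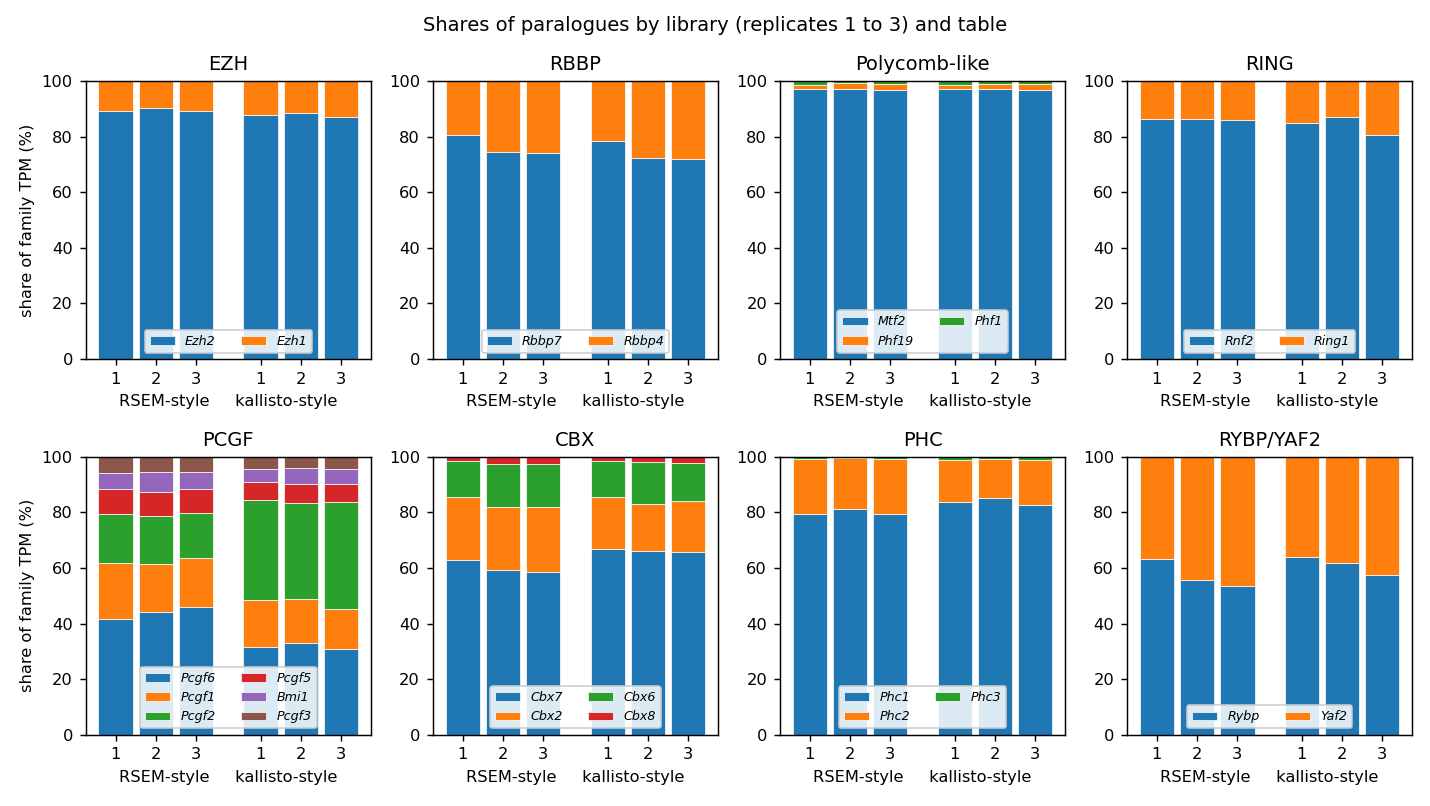
Share of each paralogue in the summed TPM of its family, in percent, for replicates 1 to 3 in the RSEM-style gene tables (left bars) and the kallisto-style tables summed per gene (right bars). The leading gene is the same in both tables for EZH, RBBP, the Polycomb-like genes, RING, CBX, PHC and RYBP/YAF2, and Pcgf2 takes 17.1% against 36.4% of the PCGF level.

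Cbx7 led the CBX genes. Cbx7, the CBX protein known from undifferentiated ES cells, was at 78.8, 62.3 and 68.1 TPM and made up 60.3% of the summed level of the 4 genes analysed here. Cbx2, known for compacting chromatin, was at 28.4, 23.9 and 27.2 TPM. Cbx6 was at 16.02, 16.34 and 17.96 TPM, and Cbx8 was at 1.99, 2.58 and 2.92 TPM. The 4 genes did not overlap, and Cbx7 exceeded Cbx2 2.63-fold, Cbx6 4.17-fold and Cbx8 29.0-fold. With coding transcripts only, Cbx7 exceeded Cbx8 64.1-fold in the RSEM-style tables and 83.8-fold in the kallisto-style tables.

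One gene also carried most of the PHC level. Phc1, whose sterile alpha motif domain lets PRC1 form larger assemblies, was at 118, 112 and 114 TPM, 80.02% of the level of the 3 genes. Phc2 was at 29.31, 24.97 and 28.64 TPM. Phc3 was at 1.46, 0.72 and 1.02 TPM, from 102, 57 and 75 estimated counts, and was the 1 member below 1 TPM in a library.

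Genes particular to variant PRC1 spanned a range of levels. L3mbtl2, a chromatin reader of PRC1.6, was at 84.95, 80.27 and 82.84 TPM. Kdm2b, which binds CpG islands for PRC1.1, was at 52.1, 48.5 and 46.9 TPM, and its PRC1.1 partner Bcor was at 15.3, 13.4 and 13.8 TPM. Of the pair that replaces CBX in variant complexes, Rybp was at 30.9, 23.9 and 22.4 TPM and Yaf2 at 17.99, 19.07 and 19.41 TPM. Rybp exceeded Yaf2 in every library, 1.72-fold in replicate 1 and 1.15- to 1.25-fold in the other two.

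In the deubiquitinase, the enzyme was more abundant than its cofactor. Bap1 was at 52.2, 51.2 and 50.7 TPM. Asxl1, which activates Bap1, was at 20.8, 15.1 and 17.3 TPM and was highest in replicate 1.

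Over all families, 33 differences were computed, 31 between paralogues and 2 between summed groups. The higher gene was the same in all 3 libraries for 32 of them, the exception being Bmi1 over Pcgf3. The libraries did not overlap for 31, the exceptions being Bmi1 over Pcgf3 and Pcgf1 over Pcgf2. The share over pairs of other genes was not computed, so these counts do not set paralogues apart from other pairs. Flipping the signs of 3 library differences, an exact permutation test (two-sided), cannot give less than p = 0.25, so none could pass 0.05, and the lowest adjusted p was 0.258. The libraries come from one line, and nothing in the labels says they were separate cultures, so their spread may be technical.

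Other genes that work with these complexes were expressed as widely. Of 39 such genes, 38 had at least 1 TPM in all libraries, with a median of 27.7 TPM over the list. The highest were Skp1a, a ligase adaptor of PRC1.1, at 442 TPM, Cbx3, a heterochromatin protein in PRC1.6, at 264 TPM, Wdr5, a scaffold protein of PRC1.6, at 164 TPM and Hdac1, a histone deacetylase, at 160 TPM. The lowest was Asxl3, a paralogue of Asxl1, at 0.03 TPM. Of the 38 tested, 6 had spread beyond counting noise, beside 12.4% of all genes tested, namely Cbx1, Hcfc1, Ogt, Scml2, Mbd6 and Asxl2. Without replicate 1, only 27 genes of the whole table did.

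Developmental genes known as Polycomb targets were low. Of 20 such genes, 5 had at least 1 TPM in all libraries and the median was 0.375 TPM. The 4 highest were T at 4.86 TPM, Gata4 at 1.87, Eomes at 1.85 and Msx1 at 1.62 TPM, and Pax3, Olig2, Nkx2-2 and Hand1 had 0 counts in all libraries. At the depth of these libraries, 3 counts, the limit that a count of 0 allows, correspond to 0.288 to 0.313 CPM (counts scaled to library size). Whether Polycomb proteins were bound at these genes was not measured.

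The 2 quantifications gave one overall shift and a few large differences. On the log2(TPM + 1) scale, averaged over libraries, the kallisto-style level was lower for 31 of the 34 members, with a median difference of -0.30, beside -0.28 over expressed protein-coding genes, of which 89.7% were lower. The 3 members that were higher on that scale were Pcgf2, Phc3 and Cbx7, while Ring1 was also higher by its mean TPM (8.86 against 8.79). Ezh2 had the most negative mean difference, at -0.55.

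**Figure D3:**
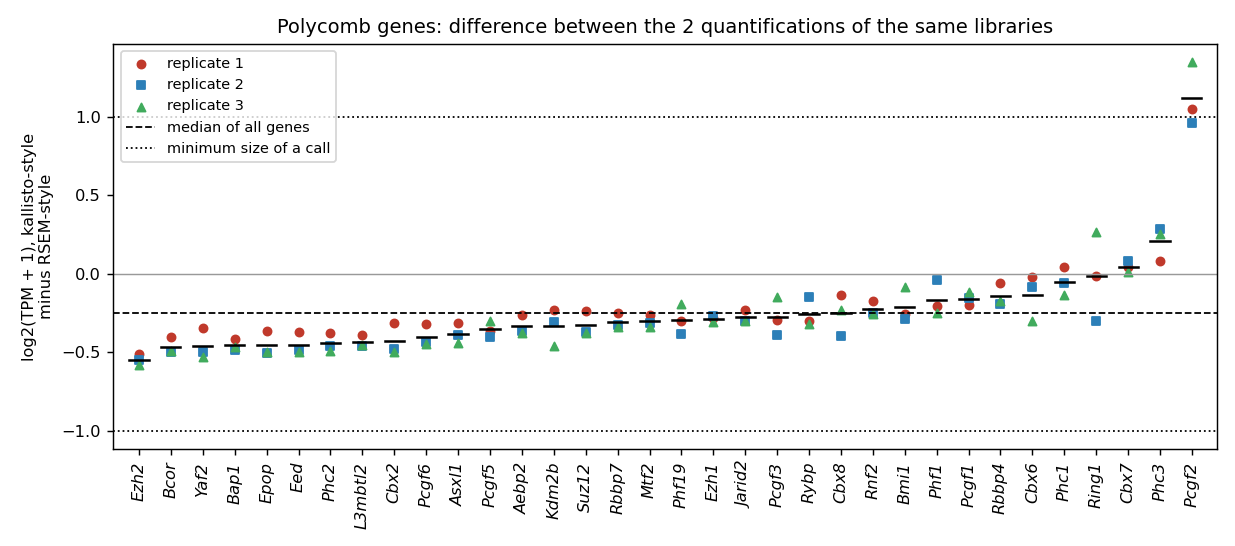
Difference between the kallisto-style and RSEM-style level of each member, on the log2(TPM + 1) scale, with one point per library and a black bar at the mean. The dashed line is the median of all genes tested (-0.25) and the dotted lines mark the minimum size of a call. Pcgf2 lies at 1.12 and all other members lie between the dotted lines.

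At transcript level, 14 of the 91 member transcripts tested were called, 10 higher and 4 lower in the kallisto-style tables. Over all 28549 transcripts tested, 19.2% were called, 12.3% higher and 6.89% lower. Phc1 gave 3 of the 14. Phc1-203 was listed at 0 in all RSEM-style libraries and at 26.96, 18.11 and 18.35 TPM in the kallisto-style ones. Phc1-202 went the other way, from 38.0, 41.4 and 30.7 TPM to at most 2.40 TPM, and Phc1-212 was at most 1.61 TPM in the first and at 29.6, 27.9 and 23.9 TPM in the second. The Phc1 gene level differed by only -0.05, so the tables split a like level in different ways. No 31-base word of Phc1-202 is its own.

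The PCGF genes gave 4 more of these transcripts. Pcgf1-201, the leading transcript of Pcgf1 in the RSEM-style tables at 21.5, 10.9 and 7.26 TPM, was at or near 0 in all kallisto-style libraries, where Pcgf1-202 led at 18.1, 13.4 and 17.2 TPM. Pcgf1-207 was higher in the kallisto-style tables by 1.73 (limma adjusted p = 0.007) and Pcgf6-203, which is annotated for nonsense-mediated decay, by 1.19 (limma adjusted p = 0.0063). Pcgf2-204 was described above.

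The other called transcripts belonged to PRC2, Rnf2 and Bcor. Mtf2-209, a processed transcript, was at 2.51, 1.04 and 1.6 TPM in the RSEM-style tables and at 17.5, 14.1 and 16.6 TPM in the kallisto-style tables. Besides Rbbp7-203, the calls were Rbbp7-204 (2.47), Rnf2-203 (1.98) and Rnf2-207 (1.13), all higher in the kallisto-style tables, and Eed-202 (-1.30) and Bcor-201 (-1.08), both lower, as log2(TPM + 1) differences. Bcor-201 was not called when any 1 library was left out, Rbbp7-204 was not called without replicate 2 or without replicate 3, and neither was called with no filter on low levels.

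**Figure D4:**
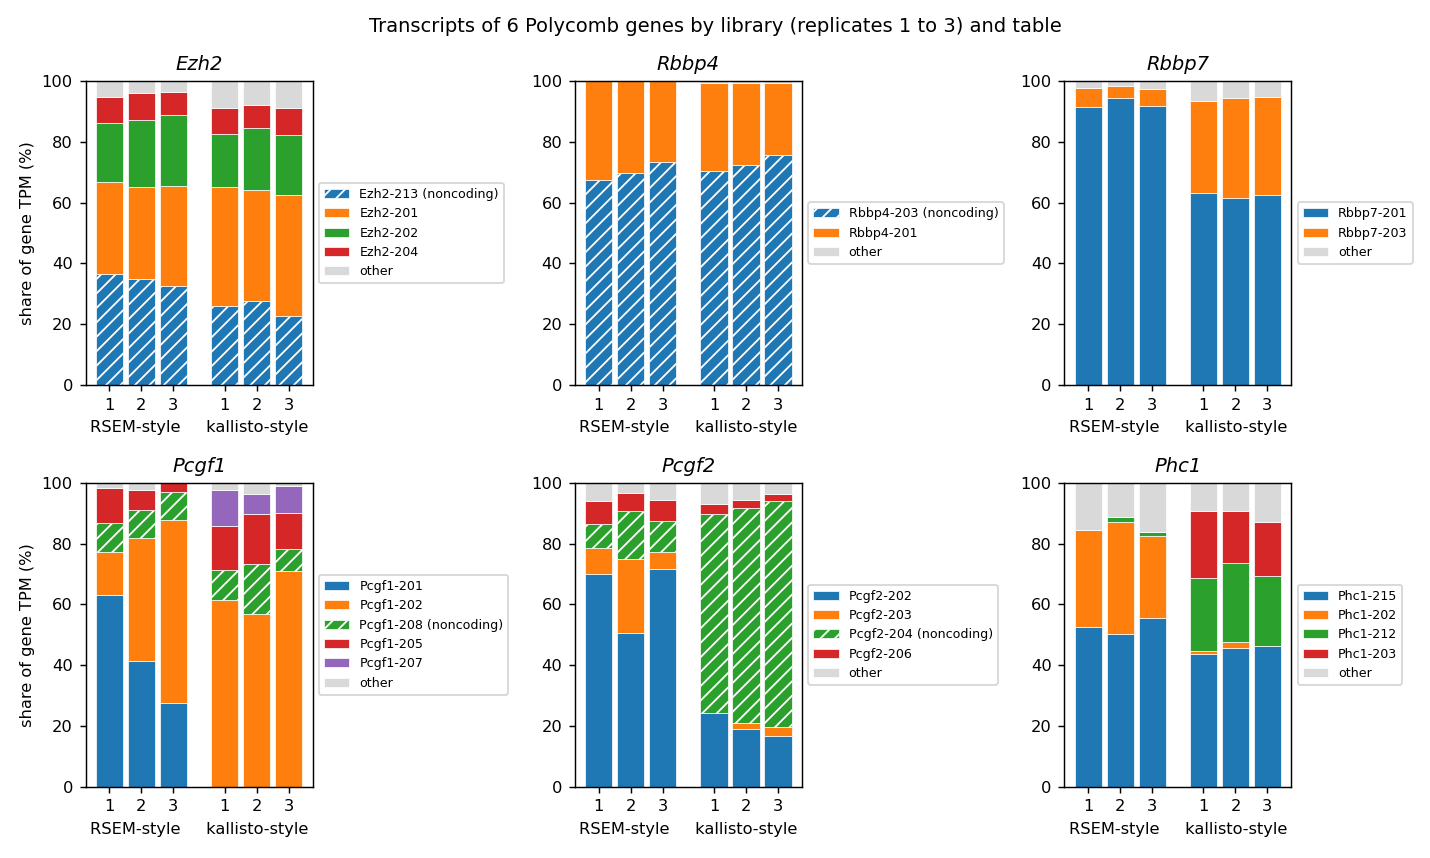
Share of the gene's TPM assigned to each transcript of 6 members, in percent, for replicates 1 to 3 in the RSEM-style (left bars) and kallisto-style (right bars) transcript tables; hatched bars are transcripts without a protein-coding annotation, and transcripts under 5% in both tables are summed in grey. Rbbp4-203 takes 70.2% of Rbbp4 in the first tables and 72.8% in the second, whereas Pcgf2-204 takes 11.3% and 70.1%.

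The leading transcript was the same in both tables for 28 of the 33 members with several transcripts, beside 87.8% of expressed protein-coding genes. The 5 exceptions were Ezh2, Pcgf2, Cbx7, Pcgf1 and Bcor. Transcripts annotated as other than protein-coding made up more than 25% of the level of 3 members in the RSEM-style tables, namely Rbbp4 (70.2%), Cbx8 (57.4%) and Ezh2 (38.1%), beside 17.5% of expressed protein-coding genes. With kallisto-style TPM, 8 members passed 25%, beside 21.1% of those genes, and the share in Pcgf2 was 71.3%.

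Some members share sequence with other genes, which leaves their levels uncertain. Of the 31-base words of Bmi1, 27.5% also occur in the pseudogene Gm5946, and of those of Pcgf1, 23.1% occur in Gm8930. Both pseudogenes were below 1 TPM on average. Rbbp7 shares 11.6% of its words with the pseudogene Gm6382. Of the 692 words of Rbbp4-203, 381 occur in other genes, and the exons of Rbbp4 overlap those of Gm26722 on the opposite strand, a gene of 37.1 TPM. The exons of L3mbtl2 overlap those of Chadl on the opposite strand over 17.2% of their bases. Without the strand setting, these reads cannot be told apart either.

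Between libraries, no member was called more variable than the trend of all genes. In edgeR's quasi-likelihood fit of the rounded counts, 0 of 34 members and 0.0373% of the 13391 genes tested passed an adjusted p of 0.05. At an unadjusted p under 0.05 there were 3 members, beside 610 of the 13391 genes. They were Rbbp4 (edgeR adjusted p = 0.381), Asxl1 and Rybp. A limma-voom fit also called 0 members, with 2 at an unadjusted p under 0.05, beside 605 of the 13391 genes.

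Against counting noise alone, the libraries did differ. A chi-square test against Poisson noise, adjusted over all genes, called 8 of 34 members, beside 12.4% of genes tested. They were Eed, Suz12, Rbbp4 and Rbbp7 of the PRC2 core, Epop, Cbx7, Rybp and Asxl1. Without replicate 1, 0 members and 27 genes were called, so the calls rested on that library. At an unadjusted chi-square p under 0.05 there were then 3 members, beside 952 of 13489 genes. Of the 8, Suz12 was also lost without replicate 2 or replicate 3, Eed and Epop without replicate 3, and Cbx7 without replicate 2. With kallisto-style counts, 10 members were called, Suz12 was not among them, and Pcgf2, Cbx2 and Aebp2 were added, beside 17.6% of genes tested.

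The members' departures in replicate 1 moved with the length listed in the gene tables, as did those of all genes. That length is weighted by the estimated transcript levels, so it rests on the uncertain transcript splits above. Rbbp4 counted as 1822 nt and Ezh2 as 1781 nt, each with a short noncoding transcript taking much of its level. Of the 27 members of at least 20 CPM, 13 of the 17 with a length of at least 3000 nt in the gene tables were higher in replicate 1 than in the mean of the other two, beside 68.2% of all such genes. Of the 10 shorter ones, 4 were higher, beside 33.2%. Rbbp4 had the largest departure, at 96.2 CPM in replicate 1 against 146 and 130 CPM, a log2 ratio of -0.52. Asxl1, at 102 against 78.4 and 84.0 CPM, had a log2 ratio of 0.34, and Rybp, at 87.9 against 75.4 and 71.1 CPM, one of 0.26. The part of length or RNA quality in these departures was not tested.

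**Figure D5:**
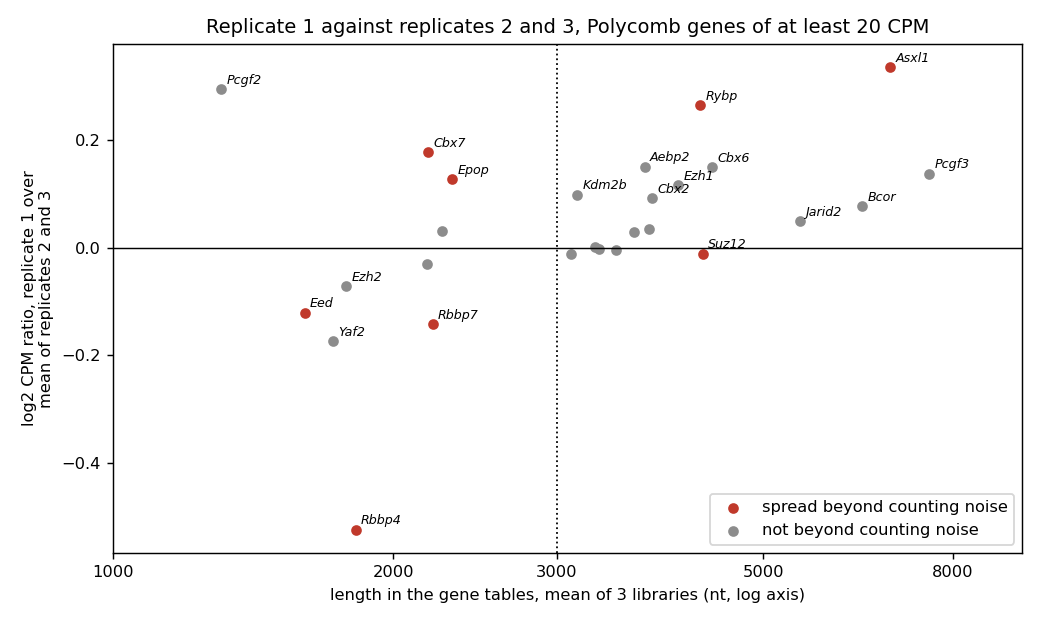
Log2 ratio of the CPM in replicate 1 to the mean of replicates 2 and 3, against the gene length in the gene tables (log axis), for the 27 members of at least 20 CPM. Red points are members whose spread exceeded counting noise, members within 0.04 of 0 that were not called carry no name, and the dotted line marks 3000 nt. Rbbp4 lies lowest at -0.52 and Asxl1 highest at 0.34.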

How the data were processed

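The members, gene lists and tests were chosen with earlier results of these data known. The authors deposited, per library, a gene table and a transcript table of expected counts and TPM made from transcriptome alignments, and a second transcript table of estimated counts and TPM made from the reads and an index, all on mm10 with GENCODE M21, per the deposited file notes. The column layouts are those of RSEM and kallisto; no aligner, version or strand setting was found (not given in the sources used here). Rows of ERCC spike-ins and 26248 tRNA rows were left out of library sizes and tests.

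From these files, kallisto-style TPM were summed per gene. Expected counts were rounded, filtered (filterByExpr) and scaled (TMM) for edgeR 4.0.16 quasi-likelihood and chi-square tests between libraries. Limma 3.58.1 tested log2(TPM + 1) differences between tables within each library, for features with at least 1 TPM throughout in one of the tables. A call required a Benjamini-Hochberg adjusted p under 0.05 over all features and, between tables, a difference of at least 1. Pairs of genes had an exact sign-flip test. All members are named; of the 2 other gene lists, the 4 highest, the lowest and any called, and of transcripts the leading and the called ones. Scripts were tested on simulated data. The chi-square p-values compare the libraries with counting noise, and those of edgeR, limma and the sign-flip test rest on how far the libraries differ. Alternatives covered DESeq2 1.42.0 size factors, ERCC scaling, limma-voom, filters, pseudocounts, the other table, coding transcripts and leaving out each library.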

Additional observations from a re-analysis of the deposited data

How the results depend on the processing

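The 3 libraries of one line limit every comparison, and the split of a gene into transcripts that share much of their sequence limits the transcript levels. The member median was 32.9 TPM when TPM were rescaled over protein-coding genes, which raises all 34 members alike (median ratio 1.16). The count of variable genes was 5, and it was 2 with ERCC scaling, 8 with limma-voom, 34 with no filter, 16 with kallisto-style counts and 7 to 14 without one library; no alternative called a member. Genes beyond counting noise numbered 1656, and 2800 with kallisto-style counts; leaving out one library gave 27 to 1470, and 0 to 7 members, the lowest in both without replicate 1. Without a minimum difference, 17986 transcripts and 11512 genes differed between the tables, 59 and 28 of them in members. With no replicate block, which treats the tables as unpaired groups, 5217 transcripts and 1916 genes were called, and the same numbers of members (14 and 1); leaving out one library gave 14 to 17 member transcripts and 1 gene. The paired analysis joins the 2 tables of each library, since they come from the same reads. Of the 33 pairs, 2 reversed with kallisto-style TPM: Pcgf1 over Pcgf2 (-1.19) and Pcgf6 over Pcgf2 (-0.19), and both kept their direction with coding transcripts of the same tables, an alternative chosen after seeing the data. The libraries of 30 to 33 pairs did not overlap under the alternatives run. With thresholds of 0.5 and 5 TPM, 34 and 30 members were expressed.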
